A study of Mus musculus with 7 samples.

Results

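The genes of the nuclear factor kappa B (NF-kB) subunits and of their IkB inhibitors were examined in splenic Tregs of aged and young mice. The group was set by name and held 10 of the 25469 genes with a read in at least 1 library. It comprised the 5 subunit genes (Nfkb1, Nfkb2, Rel, Rela and Relb), the 3 genes of the inhibitors that hold NF-kB in the cytoplasm (Nfkbia, Nfkbib and Nfkbie) and the 2 genes of nuclear IkB proteins (Nfkbid and Nfkbiz). All 10 passed the filter on low counts. The RNA-sequencing covered CD4+CD25+ splenocytes of wild-type (WT) mice, male and C57BL/6 by the study's methods, with 3 biological replicates at 18 months of age (aged) and 4 at 8 weeks (young). The methods give a somewhat higher age for the young mice than the labels do. No treatment, stimulus or transgene is named in the labels of either age, so the values describe cells as isolated. Both ages were isolated with magnetic beads by CD4 and CD25, and Foxp3, the Treg transcription factor, was not part of that selection.

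NF-kB is a family of dimeric transcription factors that carry signals from antigen, costimulatory and tumor necrosis factor receptors to the nucleus. In the canonical branch the IKK complex phosphorylates IkB proteins, which are then ubiquitinated and degraded, and the released dimers of p50 with RelA or c-Rel enter the nucleus. In the noncanonical branch NIK, encoded by Map3k14, acts through IKK alpha on p100, which is processed to p52 and pairs with RelB. Several subunit and IkB genes are themselves NF-kB targets, which makes the system self-limiting. In Tregs, c-Rel and the nuclear protein IkBNS, encoded by Nfkbid, are known for their part in Foxp3 induction. Transcript levels say nothing of the position or activity of the proteins.

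RefSeq start sites on GRCm38.p6 were at hand for 7 of the 10 genes, with 11 windows from 250 bases before to 50 bases after the start. No entry was used for Nfkb1, Relb and Nfkbiz. The kappa B consensus, the ten-base DNA element bound by NF-kB dimers, was searched on both strands, and matches were allowed to overlap. It was found in 7 of the 11 windows and in 5 of the 7 genes (Nfkb2, Rel, Nfkbia, Nfkbid and Nfkbie), and the letters were not in the windows of Rela and Nfkbib. Of all 32851 promoter windows, 4.51% held a match. A match is a description of the sequence and no evidence of binding in these cells. The 250 bases upstream of Nfkbia (chr12:55492648-55492897, minus strand) and of the second start site of Nfkbid (chr7:30422156-30422405, plus strand) are shown because Nfkbia had the highest level of the group and Nfkbid the clearest change with age. Capitals mark matches to the consensus, 5′ to 3′ in the direction of transcription.
Nfkbia: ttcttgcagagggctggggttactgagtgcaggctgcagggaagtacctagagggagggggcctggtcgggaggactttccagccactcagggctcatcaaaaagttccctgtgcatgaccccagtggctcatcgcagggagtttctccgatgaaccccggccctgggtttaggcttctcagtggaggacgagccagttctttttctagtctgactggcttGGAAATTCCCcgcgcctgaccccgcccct
Nfkbid: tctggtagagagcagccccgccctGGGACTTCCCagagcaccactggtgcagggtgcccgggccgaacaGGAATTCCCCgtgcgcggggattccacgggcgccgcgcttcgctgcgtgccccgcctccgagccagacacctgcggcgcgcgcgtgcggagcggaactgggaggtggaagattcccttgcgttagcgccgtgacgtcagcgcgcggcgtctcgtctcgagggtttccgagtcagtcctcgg
Short stretches around matches of 3 further genes are given below, with the match in capitals. For Nfkb2 they lie before the first start site and close to the second, for Rel and Nfkbie before the only start site listed.
Nfkb2, first start (chr19:46304698-46304707): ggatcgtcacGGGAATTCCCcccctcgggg
Nfkb2, second start (chr19:46305705-46305714): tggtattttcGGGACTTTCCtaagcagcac
Rel (chr11:23771052-23771061): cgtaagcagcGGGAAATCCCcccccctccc
Nfkbie (chr17:45555594-45555603): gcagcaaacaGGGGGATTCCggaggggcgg
The first Nfkb2 match and the Rel match fit the consensus on either strand.

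The libraries were of similar depth, with 10734234 to 11244060 gene counts in the aged and 12039894 to 13649310 in the young. The lowest count of any of the 10 genes in a library was that of Nfkbib, 244 in aged replicate 2, far above the 3 counts (0.22 to 0.279 CPM, the count scaled to the library total) taken as the limit of detection. Cd4 was read at 434 to 446 CPM in aged and 493 to 633 CPM in young Tregs, Il2ra (CD25) at 327 to 481 and 471 to 684 CPM, and Foxp3 at 447 to 622 and 394 to 518 CPM. None of these 3 defining genes was called (adjusted p = 0.117, 0.0588 and 0.409, edgeR), although 5 of 16 alternatives, DESeq2 and limma voom among them, called Il2ra lower in aged Tregs, and DESeq2 called Cd4 lower (log2FC -0.33, adjusted p = 0.0387), whose ages did not overlap. Reads of other cells were present. Summed erythroid markers were the highest of these lists, at 11249 to 145778 CPM in the aged and 11141 to 103953 CPM in the young libraries, with 0 of 5 called. Haemoglobin genes took 1.27% to 13.1% and 1.24% to 10.4% of the gene counts, the most in aged replicate 2 and young replicate 1. Summed neutrophil markers stood at 623 to 4206 CPM in the aged and 265 to 820 CPM in the young libraries, and 3 of 7 were called higher. Summed B cell markers stood at 859 to 1688 CPM in the aged and 1287 to 1989 CPM in the young libraries, and 0 of 6 were called. Of the monocyte or macrophage markers (241 to 443 against 344 to 408 CPM) 1 of 6 was called higher and 2 lower, and of the dendritic cell markers (41.1 to 62.9 against 55.8 to 74.8 CPM) likewise 1 and 2 of 6. Of the 5 plasma cell markers (748 to 1301 against 325 to 1999 CPM) 1 was called higher. NK cell markers lay at 24.8 to 36.0 against 35.4 to 49.8 CPM, with 1 of 4 called lower, and CD8 T cell markers at 45.4 to 82.0 against 48.8 to 92.7 CPM, with 0 of 2 called. Treg markers summed to 1959 to 2593 CPM in the aged and 1458 to 2437 CPM in the young libraries, with 0 of 5 called. Platelet markers, at 18.8 to 39.4 against 8.13 to 16.8 CPM, had 1 of 4 called higher. No marker of these lists was at 0 in any library. Mitochondrially encoded genes took 5.08% to 10.7% of the gene counts in the aged and 2.63% to 3.23% in the young libraries. The part of these differences in the results that follow was not tested.

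Of the 10 genes, 2 were called with age, both higher in aged Tregs, namely Nfkbid and Relb (edgeR's quasi-likelihood test, Benjamini-Hochberg adjusted p under 0.05 over all 13904 genes tested). None was called lower. Of all genes tested, 16.7% were called, 9.8% higher and 6.94% lower, so the members' share in this fit was near the background. Of the 10 genes, 6 had an unadjusted p under 0.05, against 32.7% of all genes. DESeq2 called 4 of them, 2 higher and 2 lower, against 17.6% of the genes it tested, and limma voom called 4, 3 higher and 1 lower, against 16.4%. The share of members thus stood above the background in these fits and near it with edgeR. Aged and young values did not overlap for 6 of the 10, with Rela, Relb, Nfkbid and Nfkbie above and Nfkb1 and Nfkbia below the young range. Of all genes tested, 29.9% did not overlap. Each of these 6 genes had a two-sided exact permutation p of 0.0571, the smallest that 3 against 4 libraries allow. The median log2 fold change of aged over young (log2FC, given below ± its standard error, SE) was 0.26 for the 10 genes and 0.02 for all genes, and the median size of the change was 0.33 and 0.27. In such bulk samples, fewer cells that express a gene and less of its RNA per cell cannot be told apart.

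**Figure D1:**
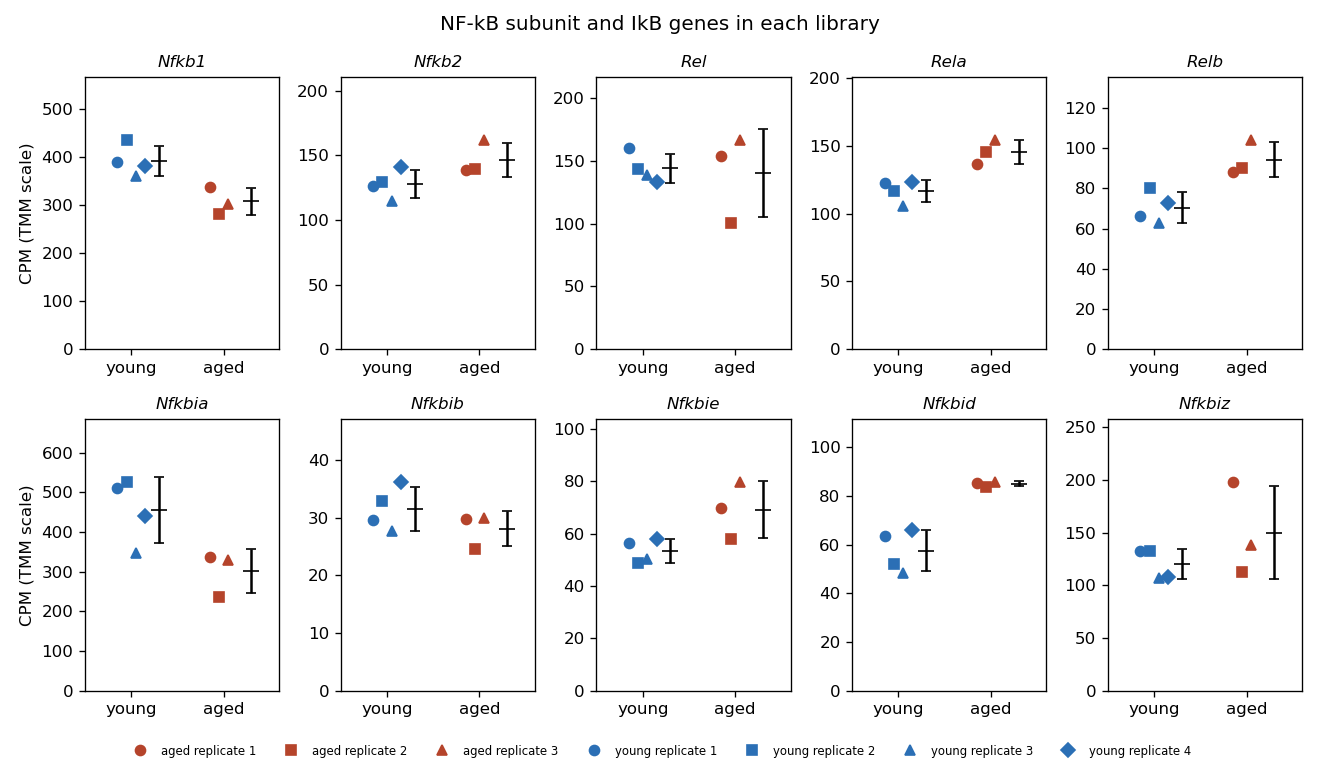
CPM on the TMM scale (vertical axes, from 0) of each of the 10 genes in 4 young (blue) and 3 aged (red) libraries, with the mean and SD beside each group. The 3 aged values of Nfkbid sit together at 83.9 to 85.9 CPM, above all young values, while those of Rel spread from 100.3 to 167 CPM around the young values.

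Nfkbid (ENSMUSG00000036931, chr7:30421732-30428746, plus strand) encodes IkBNS, an atypical IkB protein that acts in the nucleus. It was read at 85.5, 83.9 and 85.9 CPM in aged replicates 1 to 3. The young replicates 1 to 4 held 63.5, 52.2, 48.6 and 65.9 CPM. All aged libraries were above all young ones, and the aged values were the tightest of the 10 genes, with a coefficient of variation of 1.26%. The means were 85.1 ± 1.07 CPM (SD, n = 3) and 57.6 ± 8.47 CPM (SD, n = 4), a 1.48-fold higher level in aged Tregs. Its log2FC was 0.56 ± 0.12 (SE, adjusted p = 0.0166, edgeR). The call was kept in 14 of 16 alternative fits, with adjusted p-values from 0.0036 to 0.0686. It was lost without aged replicate 3 (log2FC 0.56, adjusted p = 0.0578). With the replicate number as a block it was lost as well (0.65, adjusted p = 0.0686).

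Nfkbiz (ENSMUSG00000035356, chr16:55811375-55838899, minus strand) encodes IkB zeta, the other nuclear IkB protein of the group, a cofactor of NF-kB on secondary response genes. It was at 199, 112 and 139 CPM in the aged libraries and at 133, 133, 107 and 108 CPM in the young ones. Aged replicate 1 stood alone at the top, and the other aged values lay in or just above the young range. Nfkbiz was not called (log2FC 0.32 ± 0.189, adjusted p = 0.285, edgeR), and without aged replicate 1 its log2 fold change was 0.06 (adjusted p = 0.801). That library also held the highest sum of neutrophil markers, 4206 CPM, whose part in the value was not tested.

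Among the subunits, Relb (ENSMUSG00000002983, chr7:19606217-19629438, minus strand) encodes RelB, the partner of p52 in the noncanonical branch. It was at 88.1, 90.4 and 104 CPM in the aged libraries and at 66.1, 80.4, 62.7 and 72.9 CPM in the young ones. The ranges did not overlap, and young replicate 2 came closest to the aged values. The means were 94.2 ± 8.68 CPM (SD, n = 3) and 70.5 ± 7.82 CPM (SD, n = 4), 1.34-fold higher in aged Tregs. Its log2FC was 0.42 ± 0.113 (SE, adjusted p = 0.0384, edgeR). The call was kept in 8 of 16 alternative fits, with adjusted p-values from 0.0259 to 0.162, and in 2 of the 7 that left out a library. It was lost without aged replicate 2 (log2FC 0.45, adjusted p = 0.0639) or 3 (0.34, adjusted p = 0.126). It was also lost without young replicate 1 (0.39, adjusted p = 0.0947), 3 (0.37, adjusted p = 0.101) or 4 (0.43, adjusted p = 0.0834).

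Nfkb2 (ENSMUSG00000025225, chr19:46304320-46312385, plus strand) encodes p100, the precursor of p52 and an inhibitor of RelB. It was at 139, 139 and 162 CPM in aged and 127, 129, 115 and 141 CPM in young Tregs. Young replicate 4 reached past both lower aged values. Its log2FC of 0.20 ± 0.105 (SE, adjusted p = 0.231, edgeR) was not called in any of the 16 alternatives. Exons of other genes overlap 18.1% of its exon length, and counting used no strand, so part of its reads may be lost.

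Rela (ENSMUSG00000024927, chr19:5637483-5648130, plus strand) encodes p65, the main activating subunit of the canonical branch. It was at 137, 145 and 154 CPM in the aged libraries and at 122, 117, 105 and 123 CPM in the young ones. Each aged value was above each young value, with means of 145.5 ± 8.84 CPM (SD, n = 3) and 117 ± 8.24 CPM (SD, n = 4). The change of 0.32 ± 0.0947 (log2FC ± SE) missed the threshold at an adjusted p of 0.0537 (edgeR). Of 16 alternatives 4 called it, of which 1 left out a library, aged replicate 1 (0.35, adjusted p = 0.0395). Over the 16, adjusted p-values spanned 0.0352 to 0.206.

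Nfkb1 (ENSMUSG00000028163, chr3:135584655-135691547, minus strand) encodes p105, the precursor of p50. It had the opposite sign, at 337, 282 and 303 CPM in the aged and 389.9, 435, 361 and 382 CPM in the young libraries. No aged value reached the young range. The means were 307 ± 28.2 CPM (SD, n = 3) and 392 ± 31.2 CPM (SD, n = 4), a log2FC of -0.35 ± 0.114 (SE, adjusted p = 0.0691, edgeR) that was not called. DESeq2 (adjusted p = 0.0158), limma voom (adjusted p = 0.0486) and the fit without aged replicate 1 (-0.43, adjusted p = 0.0383) called it, in a range of adjusted p-values up to 0.239 over the 16 alternatives.

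Rel (ENSMUSG00000020275, chr11:23736847-23770970, minus strand), which encodes c-Rel, showed no called difference. It was at 154, 100.3 and 167 CPM in aged and 160.5, 144, 139 and 133 CPM in young Tregs. Aged replicate 2 was below all other libraries, and the other 2 aged values lay in or above the young range. The log2FC was -0.04 ± 0.17 (SE, adjusted p = 0.905, edgeR), and its sign changed without aged replicate 2 (0.15) or young replicate 1 (0.02).

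Of the 3 inhibitor genes, none was called by edgeR or limma voom, 2 had an unadjusted p under 0.05, and DESeq2 called 1. The shares of all genes were 16.7%, 16.4%, 32.7% and 17.6% in that order, which for 3 genes does not set these counts apart. Nfkbia (ENSMUSG00000021025, chr12:55489410-55492647, minus strand) encodes IkB alpha, the inhibitor that is resynthesised after NF-kB activation and ends the response. It was at 336, 237 and 331 CPM in the aged libraries and at 510.5, 527, 346 and 440.1 CPM in the young ones. All aged values were below all young ones, but aged replicate 1 and young replicate 3 were close to each other. The means of 301 ± 55.6 CPM (SD, n = 3) and 456 ± 82.3 CPM (SD, n = 4) gave a log2FC of -0.60 ± 0.186 (SE). At an adjusted p of 0.0602 (edgeR) it was not called. DESeq2 (adjusted p = 0.00791), a fit with no filter on low counts (adjusted p = 0.0418) and the fit without young replicate 3 (-0.71, adjusted p = 0.0459) called it, and over 16 alternatives the adjusted p-values reached 0.213.

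Nfkbie (ENSMUSG00000023947, chr17:45555703-45563169, plus strand) encodes IkB epsilon, an inhibitor that follows IkB alpha with a delay. It had the opposite sign, at 69.9, 57.80 and 79.8 CPM in aged and 56.5, 48.6, 50.1 and 57.77 CPM in young Tregs. The lowest aged and the highest young value were almost equal. Its log2FC of 0.38 ± 0.124 (SE, adjusted p = 0.0718, edgeR) was not called, and of the 16 alternatives the fit without aged replicate 2 alone called it (0.49, adjusted p = 0.034). Nfkbib (ENSMUSG00000030595, chr7:28758251-28767512, minus strand), which encodes IkB beta, was the least read of the 10, at 24.6 to 29.9 CPM in aged and 27.6 to 36.3 CPM in young Tregs. These ranges overlapped, and the log2FC of -0.17 ± 0.132 (SE, adjusted p = 0.418, edgeR) was called in none of the alternatives. Exons of other genes overlap 16.4% of its exon length.

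**Figure D2:**
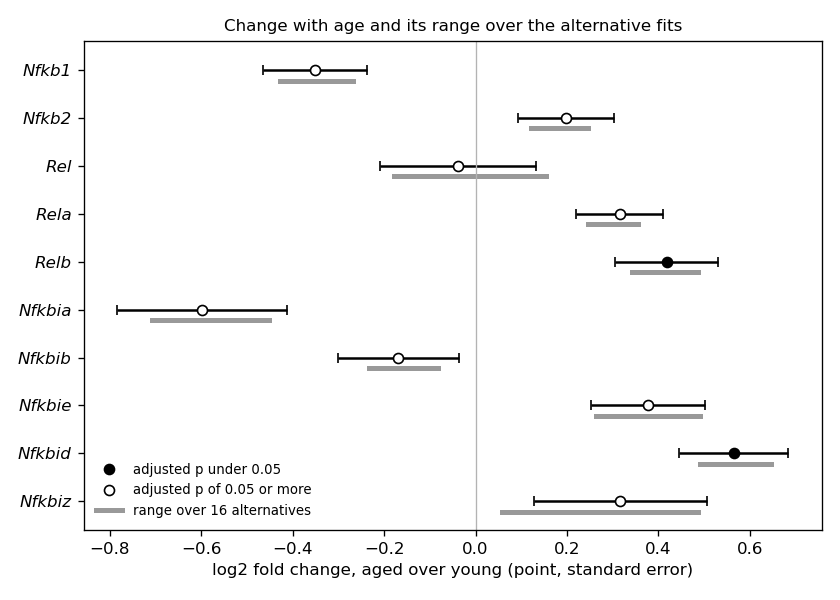
Log2 fold change of aged over young Tregs for each gene (horizontal axis), with its standard error, filled for an adjusted p under 0.05, and the range over 16 alternative fits as a grey bar. Relb (0.42) and Nfkbid (0.56) are filled, and the bar of Rel alone crosses 0.

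The 10 genes did not vary alike among libraries of an age. In aged Tregs the coefficient of variation ran from 1.26% (Nfkbid) to 29.4% (Nfkbiz), and in young Tregs from 7.05% (Rela) to 18.0% (Nfkbia). Aged replicate 2 was the lowest aged library for 7 of the 10 genes and the highest for 0, and aged replicate 3 was the highest for 7. Aged replicate 2 also held the most haemoglobin of the aged libraries (13.1% of its counts), whose part in these values was not tested. In the young, replicate 3 was the lowest for 8 genes and replicate 4 the highest for 5, and the most haemoglobin was in replicate 1 (10.4%).

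Levels of different genes were compared per length, as TPM, which scales the reads per base over the union of a gene's exons to the library's sum. Nfkbia was the highest of the group, at 613 ± 215 TPM (SD, n = 7), and was above each of the other 9 genes in all 7 libraries. Rela followed at 103 TPM and was above Nfkb1 in 7 of 7 libraries. Nfkb1 (74.3 TPM), Nfkb2 (73.4), Nfkbid (72.2) and Nfkbiz (66.2) formed a middle group. By this length, Nfkb1 was above Nfkb2, and Nfkb2 above Nfkbid, in 4 of 4 young and 0 of 3 aged libraries. By the longest transcript the same held for Nfkb2 and Nfkbid, while Nfkb1 was above Rela, and Rela above Nfkb2, in 7 of 7 libraries. Nfkbid was above Nfkbiz in 2 of 3 aged and 2 of 4 young libraries, so these neighbours did not differ beyond their spread. Relb (51.1 TPM), Nfkbie (48.7) and Rel (47.7) were again close, with Relb above Nfkbie in 3 of 7 libraries, but in 7 of 7 by the longest transcript. Nfkbib was the lowest at 34.9 TPM, below Rel in 7 of 7 libraries. Nfkbie was above Rel in 3 of 3 aged and 1 of 4 young libraries by either length. By the union of exons the order differed between ages near the bottom, where Rel had rank 9 in aged and rank 7 in young Tregs, and in the middle, since Nfkbid had rank 3 and Nfkb1 rank 6 in aged Tregs, while Nfkb1 had rank 3 and Nfkbid rank 5 in young Tregs. Nfkb1 has 12061 bases in the union of exons but 4149 in its longest transcript. With the longest transcript as length, Nfkb1 came next to Nfkbia at 169 TPM, ahead of Rela at 91.6 TPM, and the other 8 genes kept their rank. Nfkb1 then had rank 2 at both ages, so that its rank differed with age by the union of exons alone, and Nfkbid had rank 4 in aged and rank 6 in young Tregs.

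**Figure D3:**
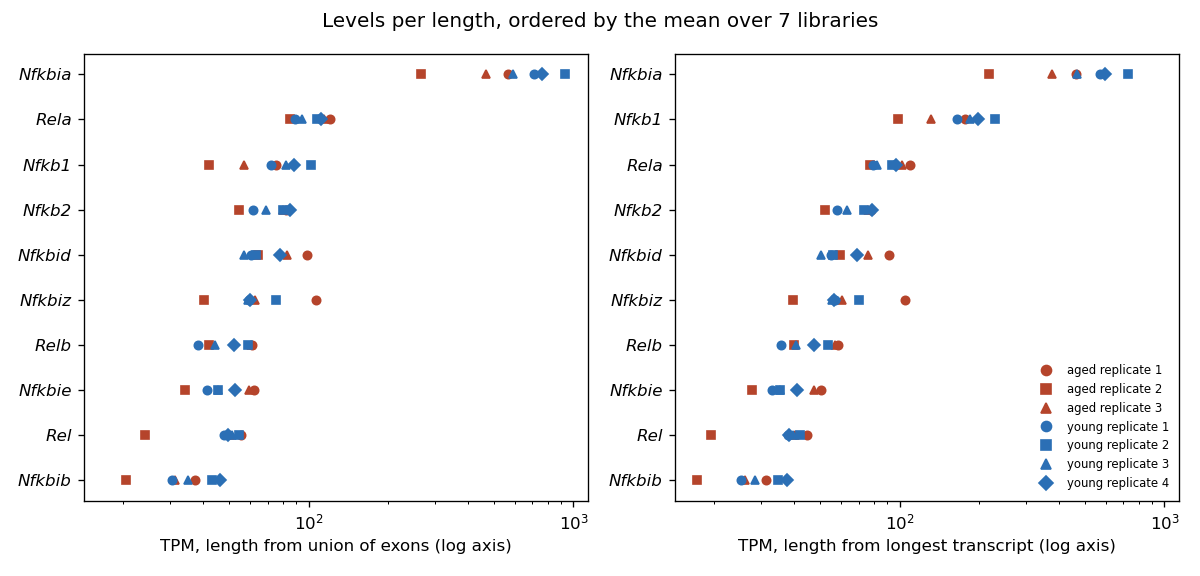
TPM (log axis) of the 10 genes in each of 7 libraries, with length from the union of exons (left) or the longest transcript (right), ordered by the mean. Nfkbia stands apart at the top in both panels, Nfkb1 and Rela change places, and Nfkbib is the lowest.

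The differences between members were also read as ratios within a library, which do not depend on the scaling between libraries. They restate the levels above for chosen pairs, so no test was run on them. The summed level of the 3 inhibitors over that of the 5 subunits was, as log2, 0.75, 0.37 and 0.62 in the aged libraries and 1.34, 1.34, 0.98 and 1.15 in the young. The groups did not overlap. On the linear scale this was a ratio of 1.49 in aged and 2.30 in young Tregs by the union of exons, and 1.06 and 1.51 by the longest transcript, where aged replicate 2 held less inhibitor than subunit RNA (log2 ratio -0.13). The difference was -0.62 by the union of exons and -0.51 by the longest transcript, without overlap in either. By the union of exons it ran from -0.71 to -0.52 over the 7 sets that each lack a library. Nfkbia made up most of the inhibitor level, 83.9% ± 1.07 (SD, n = 3) in aged and 89.7% ± 1.64 (SD, n = 4) in young Tregs. The share of Nfkbie was 10.2% ± 0.768 (SD, n = 3) and 5.66% ± 0.996 (SD, n = 4).

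Nfkbia exceeded Rela 3.91-fold in aged and 7.36-fold in young Tregs, with no overlap. For Nfkbia over Nfkb1, both lower in aged Tregs, the ratios were 7.28 and 8.63 by the union of exons and 2.55 and 3.03 by the longest transcript, and the ages overlapped. Rela over Nfkb1 was 1.86 in aged and 1.17 in young Tregs by the union of exons, with no overlap, and 0.725 and 0.456 by the longest transcript. Among the 5 subunits, by the union of exons, Nfkb1 held 17.3% ± 1.75 (SD, n = 3) of the level in aged and 23.9% ± 1.12 (SD, n = 4) in young Tregs. By the longest transcript it held 34.7% and 44.6%, the largest share of the 5, again without overlap. By the union of exons, Rela held 32.1% and 28.0%, and Relb 16.4% and 13.3%, each without overlap. The shares of Nfkb2 (21.6% and 20.5%) and Rel (12.6% and 14.2%) overlapped between ages. The noncanonical pair, Nfkb2 with Relb, over Nfkb1, Rela and Rel was -0.70 as log2 in aged and -0.97 in young Tregs, with no overlap. That difference of 0.26 depended on the length used, since it was 0.39 with the longest transcript.

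**Figure D4:**
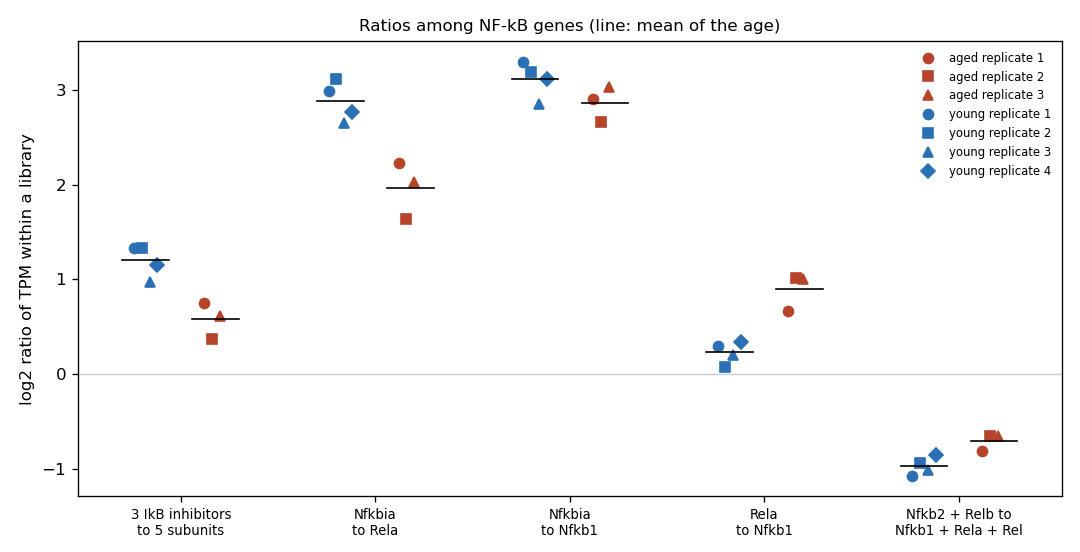
Log2 ratios of TPM within each library (vertical axis, union of exons) for 5 pairs or sums of members, with the mean of each age as a line, young in blue and aged in red. Aged values lie below young ones for inhibitors over subunits (means 0.58 and 1.20) and for Nfkbia over Rela, above them for Rela over Nfkb1 and for the noncanonical pair, and overlap for Nfkbia over Nfkb1.

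The profile over the 7 libraries was also compared among genes, by the root mean square difference between centred log2 CPM values. Among the 10 genes, the closest pairs were Nfkb2 with Rela (0.08), Rela with Relb (0.11) and Rela with Nfkbie (0.13). Among 9416 genes outside the group with a mean of at least 3 on the log2 CPM scale, Npepl1 and Fam45a (both 0.04) were closest to Relb, and Mutyh (0.08) and Snapc4 (0.10) to Nfkbid. The aged and young levels contribute to each of these values, and nothing on shared function follows from them.

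The other genes of the pathway were taken from 5 lists of 91 genes ordered by role, of which 87 were tested. Skp1 was not matched by symbol, and Il2, Csf2 and Il6 were under the filter on low counts, with at most 8 counts in a library. Of the 87, 17 were called higher and 9 lower, which is 29.9% against 16.7% of all genes. The lists were chosen with earlier results of these data known, so the shares here and below are descriptions and no test of the pathway. DESeq2 called 31 and limma voom 26. The median log2 fold change was 0.10. The number called was 9 (10.3%) without aged replicate 3, young replicate 1 or young replicate 4, against 8.9%, 9.58% and 9.03% of all genes in those fits. It was 12 (13.8%, against 9.28%) without young replicate 3 and 15 (17.2%, against 12.2%) without aged replicate 2. With the replicate number as a block it was 2 (2.3%, against 2.1%). The pathway share was thus close to that of all genes in 4 of these fits. It stayed higher without aged replicate 1 (26 called, 29.9% against 21.5%) and without young replicate 2 (21 called, 24.1% against 14.5%).

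Of 15 membrane receptor genes, 3 were called higher and 1 lower, which is 26.7% against 16.7% of all genes. The count was 1 (6.67%, against 8.9% to 9.58% of all genes) without aged replicate 3 or young replicate 1, 3 or 4. It was 2 (13.3%, against 12.2%) without aged replicate 2, 3 (20%, against 21.5%) without aged replicate 1 and 6 (40.0%, against 14.5%) without young replicate 2. Tnfrsf1b, which encodes TNF receptor 2, was at 451, 402 and 499 CPM in the aged and 270.3, 329, 238 and 224 CPM in the young libraries. All aged values were above all young ones, with a log2FC of 0.76 ± 0.153 (SE, adjusted p = 0.0135, edgeR). Tnfrsf9, the gene of the costimulatory receptor 4-1BB, rose by 0.81 (adjusted p = 0.027) and Cd3e, a chain of the T cell receptor complex, by 0.46 (adjusted p = 0.0301). Tnfrsf13c, which encodes the BAFF receptor, an activator of the noncanonical branch best known from B cells, fell by 0.93 (adjusted p = 0.0391). Cd3e and Tnfrsf13c were each called by 2 of the 7 fits lacking a library, Tnfrsf9 in 3 and Tnfrsf1b in 6.

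Of 24 genes of adaptors and kinases upstream of IKK, 4 were called higher and 4 lower, with a median log2 fold change of -0.03. That is 33.3%, against 16.7% of all genes. The count was 2, both higher, without young replicate 1 or 4 (8.33%, against 9.58% and 9.03% of all genes) and 3 without aged replicate 3 or young replicate 3 (12.5%, against 8.9% and 9.28%). It was 4 (16.7%, against 12.2% and 14.5%) without aged replicate 2 or young replicate 2, and 8 (33.3%, against 21.5%) without aged replicate 1. The genes that link the T cell receptor to IKK did not share a direction. Prkcq, which encodes protein kinase C theta, fell by 0.57 (adjusted p = 0.0274, edgeR). Malt1, a paracaspase, rose by 0.54 (adjusted p = 0.0423). Bcl10, an adaptor that binds Malt1, was not called (-0.33, adjusted p = 0.0537), but 5 of 16 alternatives, DESeq2 and the fit without aged replicate 2 among them, called it lower, with adjusted p-values from 0.0374 to 0.193 over the 16. Prkcq and Malt1 kept the call in 1 of the 7 fits lacking a library.

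On the side of the TNF receptors, Traf1, an adaptor of TNF receptor 2 and 4-1BB, was at 306, 311 and 319.7 CPM in the aged and at 177, 213, 163 and 161 CPM in the young libraries. No young value came near the aged ones. Its log2FC was 0.81 ± 0.119 (SE, adjusted p = 0.00396, edgeR). Birc2, a ubiquitin ligase of the same receptor complexes that also drives the turnover of NIK, rose by 0.75 (adjusted p = 0.00675). Both were called by each of the 7 fits lacking a library. Map3k14, the gene of NIK itself, fell by 0.45 (adjusted p = 0.0209), with 54.2 to 59.4 CPM in aged and 67.1 to 83.3 CPM in young Tregs, and 4 of those fits called it. Ripk1, a kinase at TNF receptor 1, fell by 0.64 (adjusted p = 0.0357), called in 1 of them.

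Of 9 genes of the IKK complex and of IkB ubiquitination, none was called by edgeR with TMM scaling or by limma voom, 1 had an unadjusted p under 0.05, and DESeq2 called 1. The shares of all genes were 16.7%, 16.4%, 32.7% and 17.6% in that order, which for 9 genes does not set these counts apart. Log2 fold changes ran from -0.25 to 0.23. Chuk, the gene of IKK alpha, was at 74.7 to 76.8 CPM in aged and 87.1 to 93.0 CPM in young Tregs (log2FC -0.25 ± 0.0761, adjusted p = 0.0584, edgeR). Its ages did not overlap, and 3 of 16 alternatives called it lower, namely DESeq2 (adjusted p = 0.0489), RLE normalization (0.0495) and the removal of GC content and length trends (0.0284), in a range up to 0.227. Ikbkb, the gene of IKK beta, had a log2 fold change of 0.17 (adjusted p = 0.262), and Ikbkg, the gene of the regulatory subunit NEMO, one of 0.11 (adjusted p = 0.407).

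Of 16 genes of other regulators and brakes, 2 were called higher and 1 lower, a share of 18.8% near the 16.7% of all genes. The count was 1 (6.25%, against 8.9%, 9.58% and 9.03% of all genes) without aged replicate 3 or young replicate 1 or 4. It was 2 (12.5%, against 12.2% and 9.28%) without aged replicate 2 or young replicate 3, 3 (18.8%, against 14.5%) without young replicate 2 and 4 (25.0%, against 21.5%) without aged replicate 1. Tnip2, which encodes an inhibitor that binds the ubiquitin-editing protein A20, was at 29.2, 27.0 and 30.1 CPM in the aged and at 13.5, 13.2, 12.1 and 16.8 CPM in the young libraries. The ages were far apart relative to their spread, with a log2FC of 1.05 ± 0.137 (SE, adjusted p = 0.00244, edgeR), and it was called in all 16 alternatives. Tnip3, of the same family, rose by 1.17 (adjusted p = 0.0352) from a low level, with 1.36 to 2.73 CPM in young and 3.02 to 4.96 CPM in aged Tregs, and 2 of the 7 fits lacking a library called it. Itch, a ubiquitin ligase that works with A20, fell by 0.42 (adjusted p = 0.0195), called in 3 of those fits. Bcl3, a further nuclear IkB protein, was not called (0.36, adjusted p = 0.1).

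Of 23 known NF-kB target genes tested, 8 were called higher and 3 lower, with a median log2 fold change of 0.18. That is 47.8%, against 16.7% of all genes (9.8% higher and 6.94% lower). This list too was chosen with earlier results of these data known, so its share is no test of the targets. Without one library the count ran from 4 (17.4%, against 8.9% of all genes, without aged replicate 3) to 11 (47.8%, against 21.5%, without aged replicate 1). It was 5 (21.7%, against 9.58% and 9.03%) without young replicate 1 or 4, 6 (26.1%, against 9.28%) without young replicate 3, 7 (30.4%, against 12.2%) without aged replicate 2 and 8 (34.8%, against 14.5%) without young replicate 2. It was 1 (4.35%, against 2.1%) with the replicate number as a block. Ier3, an early response gene, rose by 1.53 (adjusted p = 0.0202, edgeR) from a low level, with 0.771 to 2.45 CPM in young and 4.19 to 4.83 CPM in aged Tregs. Bcl2a1b, an antiapoptotic gene, rose by 1.52 (adjusted p = 0.0261), a value that is uncertain because it has near-identical copies. Ccl5, a chemokine gene, was at 85.4, 83.7 and 126 CPM in the aged and at 28.0, 32.9, 48.1 and 38.3 CPM in the young libraries, and was called in all 16 alternatives (log2FC 1.41 ± 0.207, adjusted p = 0.00384). Among the genes that fell, Ccr7, a lymph node homing receptor, fell by 0.77 (adjusted p = 0.0213), Vcam1, an adhesion molecule, by 0.56 (adjusted p = 0.0139), and Xiap, an inhibitor of caspases, by 0.35 (adjusted p = 0.0367). Vcam1 was called by 7 of the 7 fits lacking a library, Ccr7 in 4, Ier3 and Bcl2a1b in 3, and Xiap in 1. Of the 6 monocyte or macrophage markers, 2 were also called lower and 1 higher. The part of such cells in the Vcam1 value was not tested.

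**Figure D5:**
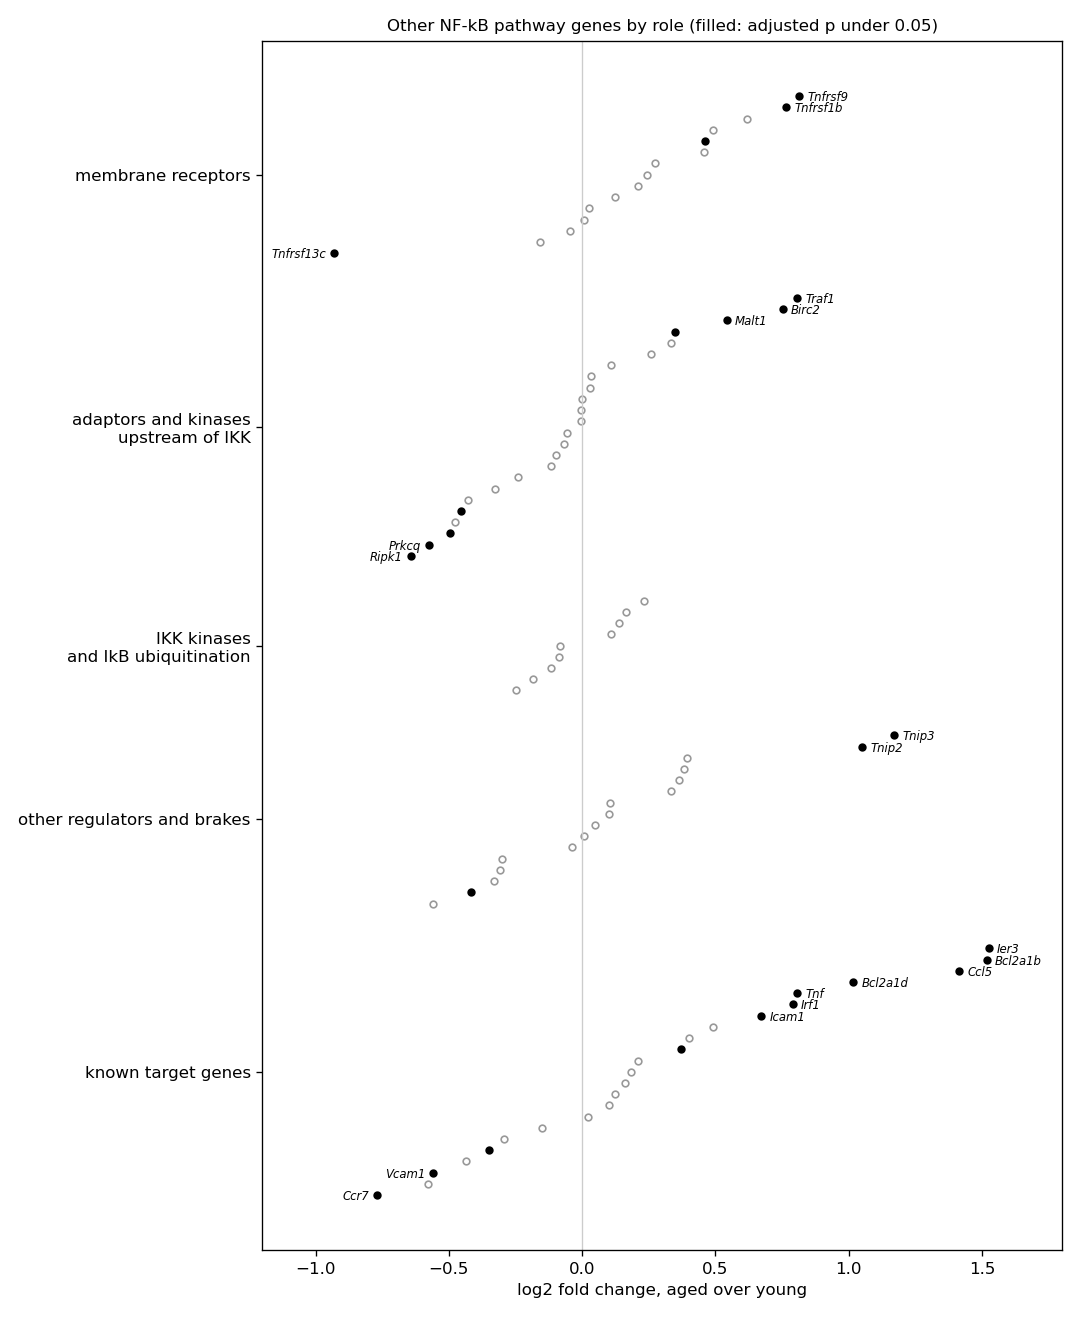
Log2 fold change of aged over young Tregs (horizontal axis) for 87 other NF-kB pathway genes, grouped by role and sorted within each role (vertical axis), filled for an adjusted p under 0.05, with names at the larger called changes. Called genes lie on both sides of 0 among adaptors and kinases (4 higher, 4 lower), mostly to the right among target genes (8 higher, 3 lower), and there is none among IKK and IkB ubiquitination genes.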

How the data were processed

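Libraries of CD4+CD25+ splenocytes were made by the authors with the SMART-Seq v4 kit, without molecular identifiers. The authors deposited raw counts per Ensembl gene, by their naming in union mode without strand. The deposited series table holds signal values, that is, the authors' counts after division by a constant for each library (checked), and the authors' own comparison (log2 fold change, standard error, p-values), which was not used. The genome build was mm10 by the submitters' processing notes, and the aligner and annotation are not given in the sources used here. Reads on no gene or several genes (13.1% to 20.9%) were left out. Limits of detection cover counting error only. Whether animals were pooled is not stated.

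From the counts, aged and young were compared in R 4.3.3 with the quasi-likelihood test of edgeR 4.0.16 (TMM, filterByExpr by group, no covariate). The study's methods name limma, and its results give 2910 differentially expressed genes. Here DESeq2 called 2910 genes and limma voom 2283. Benjamini-Hochberg adjustment covered 13904 genes. DESeq2 1.42.0 and limma 3.58.1 voom were alternatives, and the others are given with their effect at the end. The code was tested on simulated data. CPM use TMM factors. TPM were computed from counts and GENCODE M21 exons (GRCm38), whose coordinates are printed (47224 of 47729 identifiers matched).

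The members and lists were chosen with earlier results of these data known. Named genes are the members, Cd4, Il2ra, Foxp3, a few fixed kinases, adaptors and Bcl3, up to 3 called genes with the largest rise and fall in each role list, and the 2 genes closest in profile to each called member. Results for some genes of the role lists are not reported here.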

Additional observations from a re-analysis of the deposited data

Results flagged for a closer look

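Among 49 sets of young values tested for a library far from the other 3, a number of which 2.45 would be expected by chance at 1 in 20, 2 stood out, both in young replicate 2. The summed T cell markers were at 2147 CPM there and at 1669 to 1715 CPM in the other young libraries. The summed plasma cell markers were at 1999 CPM and at 325 to 497 CPM in the others. None of the 10 NF-kB and IkB genes had such a young library, and without young replicate 2 the same number of them, 2, was called, against 14.5% of all genes.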

How the results depend on the processing

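The direction of change of 9 of the 10 genes was the same in all 16 alternatives, and Rel changed sign without aged replicate 2 (0.15) and without young replicate 1 (0.02), with a range of -0.18 to 0.15 over the 7 fits lacking a library. Of 160 values of members over alternatives, 137 stayed on the same side of the threshold, 11 were newly called, 10 were no longer called and 2 had the opposite sign. Of 400 values of the 25 named pathway genes, 92 were no longer called, 8 were newly called and 0 had the opposite sign. Among the 10 genes, 4 were called with DESeq2 (against 17.6% of all genes), 4 with limma voom (16.4%) and 1 with library size only (13.2%), and 0 to 4 over those 7 fits. None was called without aged replicate 3 (8.9% of all genes were), where 5 had an unadjusted p under 0.05 (26.1% of all genes). Over all genes 1237 to 3058 were called when a library was left out, and of the pathway genes 9 to 26. The cause of these shifts was not tested. The log2 ratio of the noncanonical pair differed by 0.39 between ages with the longest transcript.

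Replicate numbers are shared by both ages, but same-numbered libraries did not deviate together (correlations of -0.09, -0.29 and -0.14). These values gave no sign that the numbers pair the mice, but so few libraries cannot decide whether they do. With the replicate number as a block, to which young replicate 4 adds nothing for lack of a partner, 292 genes were called in all, 0 of the 10 members (4 at an unadjusted p under 0.05) and 2 of the pathway genes (33 unadjusted), against 2.1% of all genes (23.5% unadjusted). By role, edgeR then called 0 receptor genes (5 unadjusted), 0 adaptors and kinases (11), 1 other regulator and 1 target gene. Fewer residual degrees of freedom are part of that fit's construction. No aged library correlated best with the young library of its own number.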
